A study of Mus musculus with 31 samples.

Results

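The genes described here are 10 chaperone genes, 7 of the cytosolic heat shock system (Hspa1a, Hspa1b, Hspa8, Hsp90aa1, Hsp90ab1, Dnajb1 and Hspb1) and 3 of the endoplasmic reticulum, the ER (Hspa5, Hsp90b1 and Pdia4). They were chosen by gene symbol among the 48709 genes of the count tables, and all 10 passed the filter on low counts that left 17428 genes for testing. RNA came from the basolateral amygdala (BLA), a region involved in fear learning, of 31 mice, and was sequenced by QuantSeq, a method that reads the 3′ ends of transcripts. Every mouse was on a C57BL/6N background. The 16 wild type (WT) mice were 8 males and 8 females, 8 from line 1 and 8 from line 3, aged 58 to 61 days. The 15 CYFIP1 OE mice carried a BAC transgene with human CYFIP1, placed by pronuclear injection, and were 7 males and 8 females, 7 from line 1 and 8 from line 3, aged 58 to 77 days. The study's methods trace its lines to founder mice but number them otherwise than the labels do, so no founder is assigned to line 3 here. The 4 mice aged 77 days were all CYFIP1 OE mice of line 1. The human transcript was not measured here.

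Molecular chaperones hold other proteins in a foldable state. In the cytosol, Hsc70 (Hspa8) and the 2 Hsp90 proteins serve the everyday folding load, and Dnajb1 (Hsp40) hands clients to the 70 kDa family. Hspa1a, Hspa1b and Hspb1 are among the inducible members that heat shock factor 1 switches on under stress. In the ER, BiP (Hspa5), Grp94 (Hsp90b1) and the disulfide isomerase Erp72 (Pdia4) fold secreted and membrane proteins, and the unfolded protein response raises them together through elements in their promoters. Neurons carry a heavy load of both kinds, since they make many membrane proteins and have little capacity to replace lost cells.

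Library totals ran from 5286708 to 8685308 reads with a median of 7387585. Punches differed in what they held: summed CPM (reads of a gene scaled to the size of its library) of 8 excitatory neuron markers ran from 567.6 to 3750, of 8 striatal projection neuron markers from 254 to 5915, and of choroid plexus markers from 19.5 to 8426. Slc17a7, which marks the principal neurons of the BLA, had 26 reads in the lowest mouse against a median of 1549, and Rspo2, another BLA marker, had 0 reads in the lowest. In such bulk tissue, fewer cells of a type and less RNA per cell cannot be told apart. A CYFIP1 OE male of line 3 stood apart in sample connectivity, the standardized similarity of its profile to the others (Z of −4.74, under the limit of −2). It had the highest Hspa8, Hsp90aa1, Hsp90ab1, Hspa5 and Pdia4 of all mice, the highest excitatory marker sum, and a TMM normalization factor of 0.747, the lowest. Results that turned on it are given without it as well. P-values set a difference or a relation against the spread between mice, and the main fits treat each mouse as independent.

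The 2 cytosolic Hsp90 genes were the most abundant of the 10 by a wide margin. Levels are in CPM after TMM scaling, and because QuantSeq counts about 1 fragment for each transcript end, they were compared between genes without division by length. Hsp90aa1, the Hsp90 form that stress can raise (chr12:110690605-110702728, minus strand, GRCm38), had 1681 ± 236 CPM (SD, n = 31), with a lowest mouse at 1234, a median of 1674 and a highest at 2294. Hsp90ab1, the constitutive form (chr17:45567775-45573271, minus strand), had 1404 ± 323 CPM (SD, n = 31), from 1063 through a median of 1329 to 2850. Hsp90aa1 was the higher in 28 of 31 mice, but the ranges overlapped. Hspa8, the constitutive 70 kDa chaperone (chr9:40800984-40810087, plus strand), lay well under both at 301 ± 65.01 CPM (SD, n = 31), with a lowest value of 202, a median of 290 and a highest of 553. No mouse had as much Hspa8 as any mouse had Hsp90ab1.

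The ER genes came next. Hspa5 (chr2:34771970-34777547, plus strand) had 266 ± 43.2 CPM (SD, n = 31), from 206 through 260 to 386, and was lower than Hspa8 in 26 of 31 mice. Hsp90b1, the ER form of Hsp90 (chr10:86690209-86705509, minus strand), had 170 ± 28.5 CPM (SD, n = 31), from 98.1 through 169 to 248, and was below Hspa5 in every mouse. Pdia4 (chr6:47796141-47813430, minus strand) was far scarcer than the other ER members, with 11.7 ± 4.17 CPM (SD, n = 31) and a range of 3.74 to 25.3. Its median was 10.9, and the highest value belonged to the mouse of low connectivity.

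The co-chaperone Dnajb1 and the inducible Hspb1, Hspa1a and Hspa1b made up the lower end of the cytosolic genes. Dnajb1 (chr8:83608193-83612653, plus strand) was the steadiest of them at 58.0 ± 8.85 CPM (SD, n = 31), from 45.8 through 56.8 to 77.3, between Hsp90b1 and Pdia4 in all 31 mice. Hspb1, the small heat shock protein Hsp27 (chr5:135887919-135889563, plus strand), had 7.06 ± 3.11 CPM (SD, n = 31), from 2.41 through 6.46 to 15.1. Hspa1a and Hspa1b, near-identical inducible 70 kDa genes that lie side by side (chr17:34969190-34972156 and chr17:34956436-34959238, both on the minus strand), were the lowest. Hspa1a had 4.18 ± 3.01 CPM (SD, n = 31), from 0.459 through 3.55 to 15.3, and Hspa1b had 2.94 ± 2.85 CPM (SD, n = 31), from 0 through 2.53 to 13.4. In 2 WT mice of line 1 no Hspa1b read was counted, which allows up to 0.378 and 0.439 CPM (3 reads, counting error only). Pdia4 exceeded Hspb1 in 27 mice, Hspb1 exceeded Hspa1a in 24 and Hspa1a exceeded Hspa1b in 22 of 31, so the order among these low genes was not the same in every mouse.

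**Figure D1:**
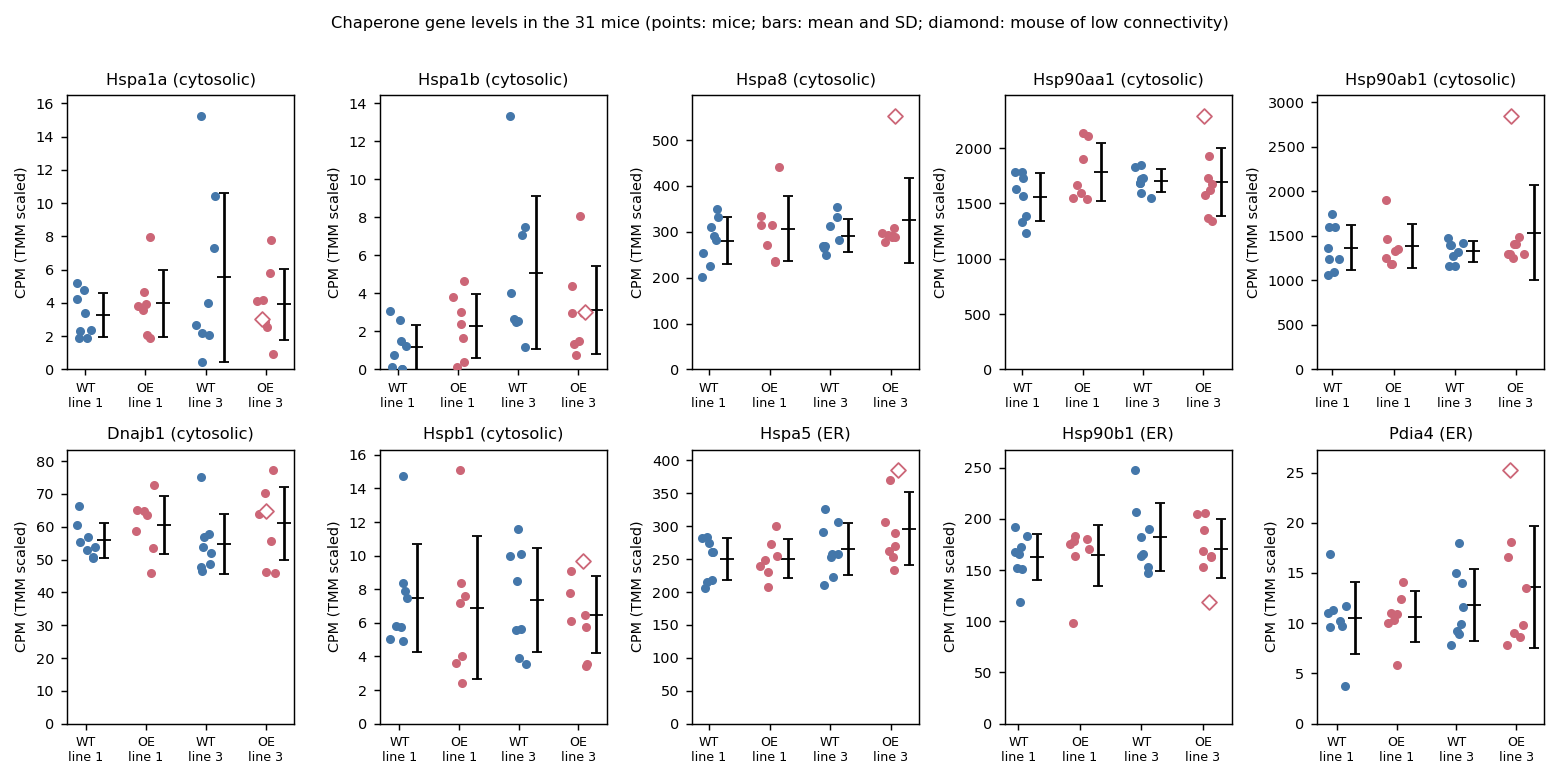
Levels of the 10 chaperone genes in CPM (vertical axis, from 0) in each of the 31 mice, by genotype and line; points are mice, black bars the mean and SD, and the open diamond the mouse of low connectivity. Hsp90aa1 and Hsp90ab1 lie at 1063 CPM or more in every mouse, Hspa1a and Hspa1b at or under 15.3, and in no panel are WT and CYFIP1 OE mice apart.

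The scarcest genes, Hspa1b, Hspa1a, Hspb1 and Pdia4, were also the most variable. The coefficient of variation across mice was 96.99% for Hspa1b, 72.0% for Hspa1a, 44.0% for Hspb1 and 35.7% for Pdia4, where counting error alone would give 21.0% for Hspa1b and 17.6% for Hspa1a. The abundant genes varied much less, from 14.1% for Hsp90aa1 to 23.0% for Hsp90ab1, and the value of Hsp90ab1 fell to 13.5% without the mouse of low connectivity. Counting error was 0.985% for Hsp90ab1, so counting made up little of its spread. Differences between mice and between their libraries cannot be told apart here. Hspa1a and Hspa1b rested on few reads, with medians of 27 and 19 per mouse. The reads of these copies may be split between them by the counting, so each value alone is uncertain, and their summed level was 7.13 ± 5.66 CPM (SD, n = 31).

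Summed over members, the cytosolic genes had 3459 ± 576 CPM and the ER genes 448 ± 54.8 CPM (SD, n = 31). The ratio of the sums was 7.79 ± 1.36 (SD, n = 31), with a lowest mouse at 5.60, a median of 7.72 and a highest at 11.1. WT mice had a ratio of 7.65 ± 1.17 (SD, n = 16) and CYFIP1 OE mice 7.95 ± 1.56 (SD, n = 15), and the ranges overlapped almost wholly (5.61 to 9.50 and 5.60 to 11.1). Line 1 had 8.04 ± 1.28 (SD, n = 15) and line 3 had 7.56 ± 1.43 (SD, n = 16). These sums are set by Hsp90aa1, Hsp90ab1, Hspa8, Hspa5 and Hsp90b1. When each member counts alike, as the mean log2 CPM of the cytosolic genes minus that of the ER genes, the balance was −0.47 ± 0.40 for WT (SD, n = 16) against −0.45 ± 0.30 for CYFIP1 OE (SD, n = 15), a difference smaller than the spread in either group.

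Whether excess CYFIP1 changed the chaperones was asked by comparing the genotypes in 1 edgeR quasi-likelihood fit with sex and line as covariates. None of the 10 genes was called at a Benjamini-Hochberg adjusted p under 0.05, none had an unadjusted p under 0.05, and DESeq2 also called none. Across all genes the fit called 0%, with 750 of 17428 genes at an unadjusted p under 0.05 and 0 called by DESeq2. Of the members, 7 of 10 had a higher fitted level in CYFIP1 OE mice and the median log2 fold change was 0.085, against −0.005 over all genes tested.

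Among the cytosolic genes, Dnajb1 came nearest to a difference. Its lowest, median and highest values were 46.6, 53.8 and 75.1 CPM in WT mice and 45.8, 63.8 and 77.3 CPM in CYFIP1 OE mice. The groups overlapped over nearly their whole range, although 11 of 15 CYFIP1 OE mice exceeded the mean of the WT mice. The log2 fold change was 0.14 with a 95% interval of −0.03 to 0.31 (edgeR, unadjusted p = 0.110, adjusted p = 0.9994). Hspa8 had 202, 283 and 354 CPM in WT mice and 235, 294 and 553 CPM in CYFIP1 OE mice. Again 11 of 15 transgenic mice exceeded the mean of the WT group, for a log2 fold change of 0.14 with an interval of −0.07 to 0.35. For Hsp90aa1 and Hsp90ab1 the differences were 0.09 (−0.08 to 0.25) and 0.12 (−0.10 to 0.33).

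The ER genes had intervals of like width. Hspa5 had 206, 259 and 326 CPM in WT mice and 208, 262 and 386 CPM in CYFIP1 OE mice, for a log2 fold change of 0.08 (95% interval −0.09 to 0.25). For Hsp90b1 the log2 fold change was −0.04 (−0.23 to 0.15). For these and the other abundant genes the intervals left out changes larger than about 0.35 on the log2 scale. The scarce genes were bounded far less tightly, with intervals of −0.25 to 0.47 for Pdia4, −0.61 to 0.31 for Hspb1, −0.76 to 0.58 for Hspa1a and −0.88 to 0.98 for Hspa1b. The 4 mice aged 77 days and the mouse of low connectivity were all CYFIP1 OE, and leaving either out brought no call. With the latter left out the log2 fold changes were much smaller for Hsp90ab1 (0.02), Hspa8 (0.06), Hsp90aa1 (0.05), Hspa5 (0.04) and Pdia4 (0.02). That of Dnajb1 was 0.13 in this setting, but 0.09 without the mice aged 77 days and 0.06 with age as a covariate.

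**Figure D2:**
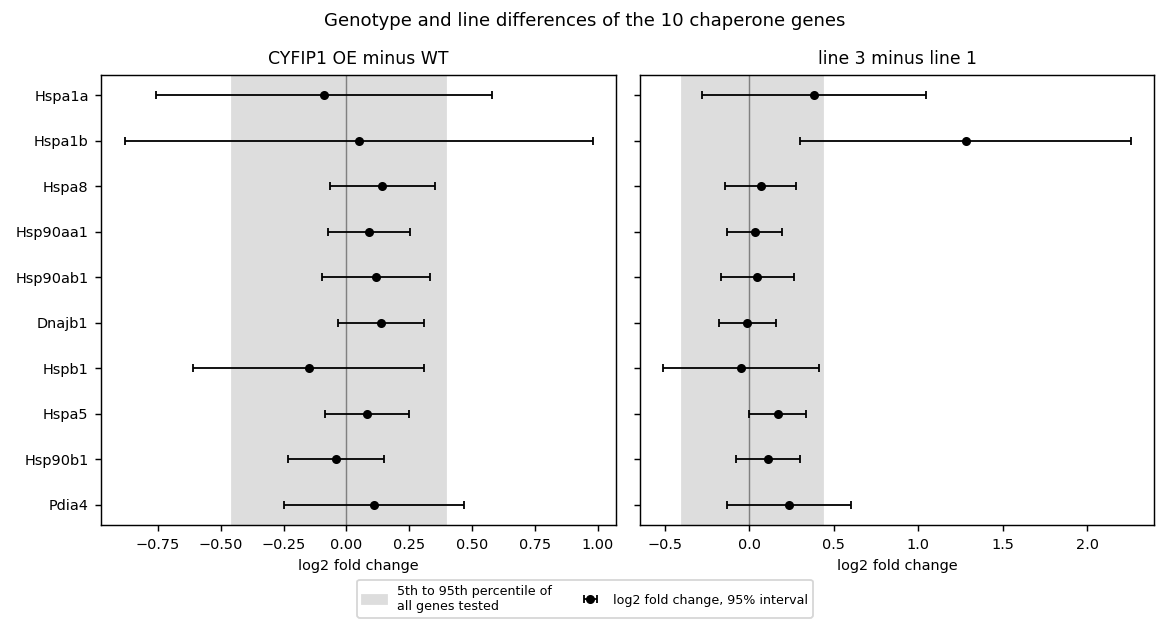
Fitted log2 fold changes (horizontal axes) of the 10 genes with 95% intervals, for CYFIP1 OE minus WT on the left and line 3 minus line 1 on the right; the grey band spans the 5th to 95th percentile of all genes tested. Every genotype interval crosses 0, and in the line comparison that of Hspa1b alone does not, at 0.30 to 2.26.

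No other gene of the pathways was called between genotypes either. Of 34 further cytosolic and mitochondrial heat shock genes, 20 were higher and 14 lower in CYFIP1 OE mice (median log2 fold change 0.018), 2 reached an unadjusted p under 0.05 and none was called. The 3 with the smallest p were Ahsa1, which stimulates the Hsp90 ATPase (0.24, 95% interval 0.01 to 0.47, p = 0.0384), Dnajc5, the synaptic vesicle co-chaperone (0.16, 0.01 to 0.30, p = 0.0386), and Stip1, which bridges the 70 and 90 kDa chaperones (0.27, −0.01 to 0.55, p = 0.0609). All of these had an edgeR adjusted p of 0.9994. Of 33 tested ER chaperone and unfolded protein response genes, 15 were higher and 18 lower (median −0.014), none reached an unadjusted p under 0.05, and the lowest p-values belonged to Selenos, an ER membrane selenoprotein of protein disposal (−0.16, p = 0.129), Ppp1r15a, which reverses the stress block of translation (−0.35, p = 0.180), and the disulfide isomerase Txndc5 (−0.24, p = 0.238).

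Between the lines, Hspa1b differed most. Its lowest, median and highest values were 0, 1.51 and 4.66 CPM in the 15 mice of line 1 and 0.744, 2.96 and 13.4 CPM in the 16 mice of line 3. The groups overlapped, with 12 of 16 line 3 mice above the line 1 mean. The log2 fold change was 1.28 (95% interval 0.30 to 2.26, edgeR unadjusted p = 0.0118), which failed the adjustment over all genes (adjusted p = 0.9998). No gene of the 17428 was called between the lines by edgeR or DESeq2 (0%, with 576 genes at an unadjusted p under 0.05 in edgeR). Hspa1b was the single member at an unadjusted p under 0.05 in edgeR, while in DESeq2 Hspa5 was under it as well (p = 0.0422).

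The line difference of Hspa1b was larger among the WT mice. WT mice had 0, 1.01 and 3.10 CPM (lowest, median, highest) in line 1 and 1.17, 3.33 and 13.4 CPM in line 3. In CYFIP1 OE mice the values were 0.147, 2.41 and 4.66 CPM in line 1 and 0.744, 2.96 and 8.09 CPM in line 3. Fitted apart, the log2 difference was 2.06 in WT mice (edgeR p = 0.0061) and 0.45 in CYFIP1 OE mice (p = 0.45). The difference of these differences was −1.63 with a 95% interval of −3.51 to 0.25 (p = 0.0873, adjusted p = 0.684), so the genotypes were not shown to differ in it, and the interaction called 0% of all genes by edgeR, with 1412 genes at an unadjusted p under 0.05, and 2 genes by DESeq2. With the reads of Hspa1a and Hspa1b summed, which removes any split between the copies, the line difference was 0.73 (p = 0.0284). Hspa1a alone differed by 0.38, with an interval of −0.28 to 1.04.

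The ER genes leaned the same way between lines without passing. Hspa5 had 206, 254 and 300 CPM in line 1 and 211, 266 and 386 CPM in line 3, a log2 fold change of 0.17 (−0.0005 to 0.34, p = 0.0506, adjusted p = 0.9998). Pdia4 had 0.24 (−0.13 to 0.60) and Hsp90b1 0.11 (−0.08 to 0.30). In all, 8 of 10 members were higher in line 3, and the median log2 fold change was 0.090 against 0.007 over all genes. Hspa8, Hsp90aa1 and Hsp90ab1 were not when the mouse of low connectivity was left out (−0.01, −0.003 and −0.04), which left 5 of 10, namely Hspa1a, Hspa1b and the 3 ER genes. Of the 33 further ER genes 22 were higher in line 3 and 1 had an unadjusted p under 0.05, namely Edem1, which directs misfolded glycoproteins to degradation (0.40, p = 0.0416); Serp1 (0.22, p = 0.0596) and the oxidase Ero1l (−0.21, p = 0.0676) followed. Of the 34 cytosolic genes 21 were higher, led by the Hsp90 co-chaperones Chordc1 (0.28, p = 0.00412) and Cdc37 (0.21, p = 0.0286) and by Dnajb6 (0.14, p = 0.0575). None of these passed the adjustment.

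The mice bear names that fall into 10 sets sharing all but the last number, and the labels do not say what the sets are. A test over these name groups called 0.0172% of genes (3 of 17428) and none of the members (edgeR; none at an unadjusted p under 0.05). Hspa1a came nearest (p = 0.0598, adjusted p = 0.808). Its group means ran from 1.17 CPM in the 3 mice of SMC12.C to 7.41 CPM in the 4 mice of X424.C, where single mice reached 15.3 CPM. Both of these sets belong to line 3, so the spread of Hspa1a within that line was as wide as the whole range. Of the partner genes, the smallest p were those of Chordc1 (0.0237), Hspb8 (0.0396) and Ahsa1 (0.0619) among cytosolic genes and of Serp1 (0.103), Atf4 (0.134) and Calr (0.147) among ER genes, all with adjusted p of at least 0.711.

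Sex made no difference that the test could call. The sex term called 0.0631% of all genes (11 of 17428) and none of the 10 chaperones (edgeR; none at an unadjusted p under 0.05, and none called by DESeq2). The largest fitted difference was 0.31 for Hspa1a (females minus males, 95% interval −0.35 to 0.98).

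Across mice, pairs of chaperones differed widely in how far they moved together. Of the 45 pairs, Pearson's r of log2 CPM had a median of 0.164 over the 21 cytosolic pairs, −0.021 over the 3 ER pairs and 0.095 over the 21 mixed pairs, against −0.001 over all pairs of tested genes. In the 30 other mice, the one of low connectivity left out, these medians were 0.111, 0.172 and 0.088, so that mouse set the sign of the ER median and the order of the 3 values. All members of a pair come from the same library and share its scaling. The 3 abundant cytosolic genes rose and fell together. Hspa8 and Hsp90ab1 had r = 0.896 (permutation p = 1e-05, the smallest that 100000 resamples can give, adjusted p = 0.00045 over 45 pairs) and Spearman's rho = 0.767. The relation held at r = 0.771 without the 2 mice farthest from the median, at 0.916 in line 1 and 0.897 in line 3, and at 0.81 in WT and 0.936 in CYFIP1 OE mice. Hsp90aa1 joined them more loosely, with r = 0.683 to Hspa8 (permutation p = 4e-05, adjusted p = 0.0006, rho = 0.518) and r = 0.671 to Hsp90ab1 (permutation p = 3e-05, adjusted p = 0.0006, rho = 0.589).

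**Figure D3:**
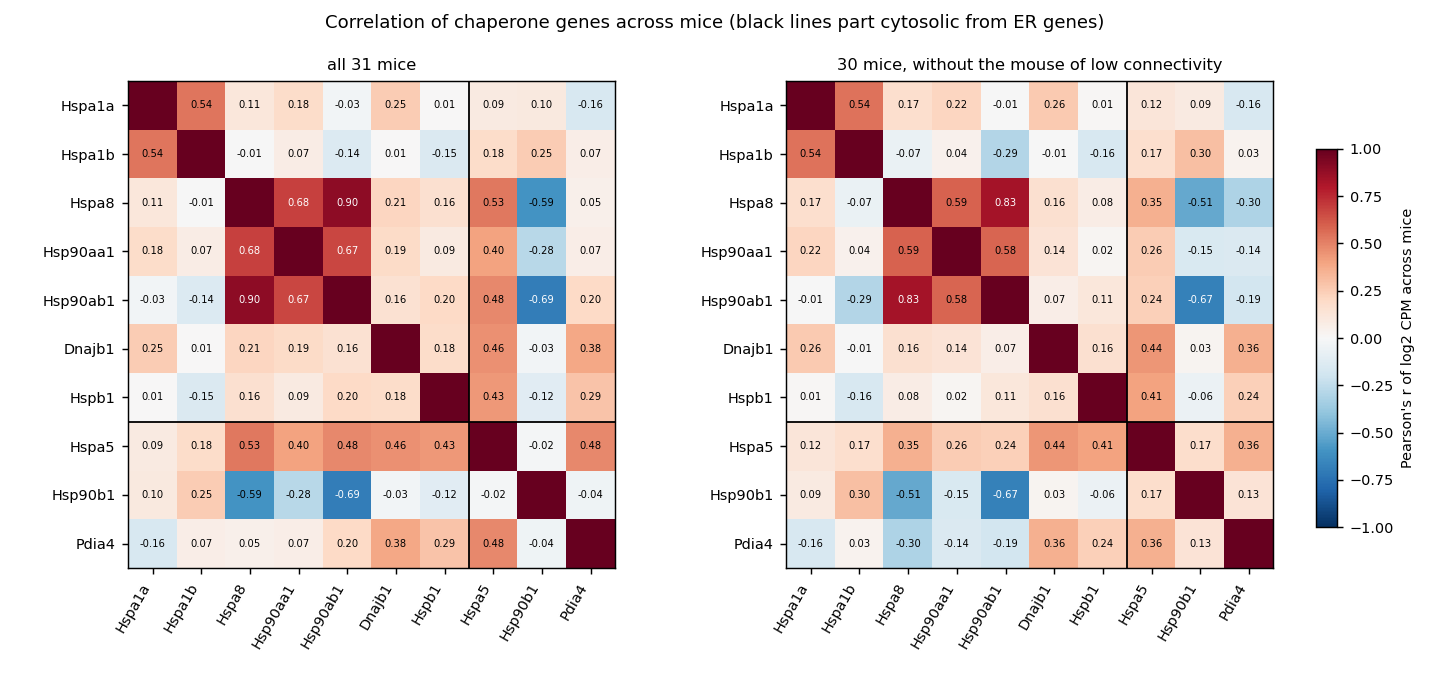
Pearson's r of log2 CPM across mice for each pair of the 10 chaperone genes, over all 31 mice on the left and over 30 mice without the one of low connectivity on the right; red is positive, blue negative, and black lines part the 7 cytosolic from the 3 ER genes. The red square of Hspa8, Hsp90aa1 and Hsp90ab1 and the blue cells of Hsp90b1 with Hsp90ab1 (−0.692 and −0.673) stand in both panels.

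The ER chaperone Hsp90b1 ran against Hsp90ab1. With it Hsp90b1 had r = −0.692 (permutation p = 0.00013, adjusted p = 0.00146) and rho = −0.540. The relation was −0.532 without the 2 farthest mice, −0.673 without the mouse of low connectivity, −0.759 and −0.714 within lines 1 and 3, and −0.59 and −0.758 within WT and CYFIP1 OE mice. With Hspa8 it was weaker, r = −0.594 (permutation p = 0.0011, adjusted p = 0.0099) but rho = −0.343 (adjusted p = 0.222), and r = −0.278 without the 2 farthest mice, so that the relation to Hspa8 rested on those mice. With Hsp90aa1 the relation did not pass (r = −0.28, adjusted permutation p = 0.378, rho = −0.094), and r was 0.026 in WT mice. The opposite course is plain in single mice. Of the 3 mice highest in Hsp90ab1, the mouse of low connectivity had 2850 CPM of Hsp90ab1 and 119 CPM of Hsp90b1, a CYFIP1 OE female of line 1 had 1902 and 98.1 CPM, the lowest Hsp90b1 of all, and a WT mouse of line 1 had 1749 and 119 CPM. Leaving out these 3 mice, a choice made after their values were seen, left r = −0.378 for Hsp90ab1 and Hsp90b1 and −0.151 for Hspa8 and Hsp90b1 (n = 28), so much of the inverse relation lay in them. Hspa8 and Hsp90ab1 stayed at r = 0.751.

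Over all mice the other ER genes had no clear relation to Hsp90b1. Hspa5 and Hsp90b1 had r = −0.021 (permutation p = 0.911, adjusted p = 0.975) and rho = 0.151, with 0.379 in WT and −0.291 in CYFIP1 OE mice. Without the 3 mice named above their r was 0.529 (n = 28), so the value for this ER pair turns on those mice. Hsp90b1 and Pdia4 had r = −0.044. Hspa5 and Pdia4 had r = 0.484 (permutation p = 0.0056, adjusted p = 0.0315), which was 0.252 without the 2 farthest mice and 0.356 without the mouse of low connectivity. Hspa5 leaned towards cytosolic genes instead, with r = 0.528 to Hspa8 (adjusted permutation p = 0.0163), 0.477 to Hsp90ab1 (adjusted permutation p = 0.0373) and 0.459 to Dnajb1 (adjusted permutation p = 0.0420). Without the 2 mice farthest in Hspa8, Hsp90ab1 and Dnajb1 in turn, these were 0.302, 0.164 and 0.285, so each was weaker without its own 2 mice. Without the mouse of low connectivity they were 0.353, 0.236 and 0.444. Dnajb1 likewise had r = −0.029 with Hsp90b1 over all mice and 0.472 without the 3 mice.

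**Figure D4:**
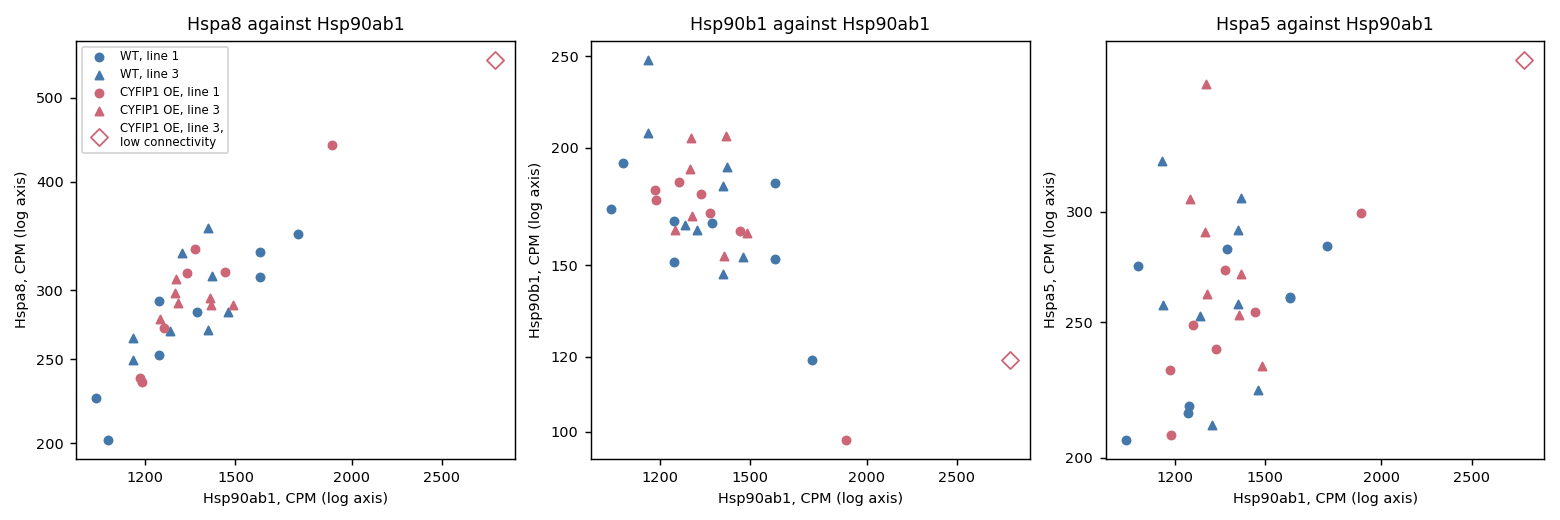
Levels of Hspa8, Hsp90b1 and Hspa5 against Hsp90ab1 in the 31 mice, in CPM on log axes; colour gives the genotype, shape the line, and the open diamond is the mouse of low connectivity. Hspa8 climbs with Hsp90ab1 (r = 0.896) and Hsp90b1 falls (r = −0.692), while Hspa5 is spread (r = 0.477, or 0.236 without the diamond).

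Hspa1a and Hspa1b moved together, with r = 0.536 (permutation p = 0.00183, adjusted p = 0.0137), rho = 0.651 and r = 0.578 without the 2 farthest mice, and they moved with no other member at an adjusted permutation p under 0.05. Reads assigned to the wrong copy could add to or take from this value. Their promoters are shown because the genes share nearly all of this sequence, and those of Hspa5 and Hsp90b1 because both hold the element that the unfolded protein response uses although their r over all mice was near 0. Each is the 250 bases before the RefSeq start site, read 5′ to 3′ on the gene's strand of GRCm38.p6, with capitals marking a pair of facing heat shock units (GAANNTTC), the ER stress element (CCAAT, 9 bases, CCACG) on either strand, or TGACGTG, a binding motif of ATF and CREB factors.
Hspa1a: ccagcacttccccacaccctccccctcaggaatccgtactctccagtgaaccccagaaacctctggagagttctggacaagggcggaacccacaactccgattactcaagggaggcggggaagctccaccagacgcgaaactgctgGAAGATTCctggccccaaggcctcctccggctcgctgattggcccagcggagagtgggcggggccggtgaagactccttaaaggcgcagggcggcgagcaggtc
Hspa1b: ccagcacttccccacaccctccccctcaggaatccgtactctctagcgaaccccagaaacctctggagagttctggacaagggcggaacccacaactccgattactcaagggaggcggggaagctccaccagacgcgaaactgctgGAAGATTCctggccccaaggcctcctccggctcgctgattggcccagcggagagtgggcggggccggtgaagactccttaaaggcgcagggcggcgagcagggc
Hspa5: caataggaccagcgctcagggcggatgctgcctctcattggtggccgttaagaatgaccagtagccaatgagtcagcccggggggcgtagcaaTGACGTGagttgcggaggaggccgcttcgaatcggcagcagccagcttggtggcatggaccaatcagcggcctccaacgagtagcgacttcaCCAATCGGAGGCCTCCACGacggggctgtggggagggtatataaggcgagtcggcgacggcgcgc
Hsp90b1: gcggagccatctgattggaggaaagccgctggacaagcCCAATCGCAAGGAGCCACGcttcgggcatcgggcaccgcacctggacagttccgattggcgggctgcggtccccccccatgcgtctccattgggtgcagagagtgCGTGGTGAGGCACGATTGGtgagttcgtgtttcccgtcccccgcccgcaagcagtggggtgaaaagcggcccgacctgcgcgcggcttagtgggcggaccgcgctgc
The Hspa1a window is chr17:34972157-34972406 and the Hspa1b window chr17:34959239-34959488 (both minus strand), and they differ at 3 of 250 bases. Hspa5 is chr2:34771840-34772089 (plus strand) and Hsp90b1 chr10:86705445-86705694 (minus strand), and for both GENCODE places the gene's first base within the window. GAANNTTC begins 104 bases before the start in both Hspa1 genes and 117 and 97 bases before it in Hspb1, while 7.86% of all 32851 RefSeq promoters of 300 bases (250 before and 50 after the start) hold it on either strand. The promoters of Dnajb1, also cytosolic, held no match to it. The ER stress element begins 65 bases before the start in Hspa5, and in Hsp90b1 it begins 212 bases before the start on the gene's strand and 107 bases before it on the other. Only 0.119% of all promoters (39 of 32851) hold it, and Pdia4 does not within this window. TGACGTG was found 157 bases before the start in Hspa5, and 2.01% of promoters hold it. Promoters of 7 of the 10 members were in the table. A match of letters is a description of the window, and binding was not measured.

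To place the members in the wider transcriptome, each member's log2 CPM was entered as a term in the edgeR fit beside sex, line and genotype, and the slope for every other gene was read as its log2 change for 1 SD of the member. The share of all genes that were called differed greatly between members. It was 18% for Hsp90ab1, 9.92% for Hspa8, 9.19% for Hsp90b1 and 8.37% for Hsp90aa1, and only 0.304% for Hspa5, 0.132% for Hspb1 and 0.00574% for Pdia4. For Hspa1a, Hspa1b and Dnajb1 it was 0% (edgeR; 1674, 1582 and 985 genes at an unadjusted p under 0.05, and no other tool was run). Among the members, 5 of the 45 pairs were called: Hspa8, Hsp90aa1 and Hsp90ab1 with each other, and Hsp90b1 with Hspa8 and with Hsp90ab1. Per SD of Hsp90ab1, Hspa8 rose by 0.24 (SE 0.03, adjusted p = 3.45e-07) and Hsp90b1 fell by 0.18 (SE 0.04, adjusted p = 0.000741). Without the mouse of low connectivity these were 0.18 (adjusted p = 0.000455) and −0.17 (adjusted p = 0.00748), the other 3 pairs were no longer called, and the share of all genes called fell to 5.78% for Hsp90ab1 and 0.528% for Hspa8. With 5 surrogate variables as covariates no pair was called. The slope of Hspa8 on Hsp90ab1 was then 0.32 (adjusted p = 0.234), that of Hsp90b1 was 0.001, and 0% of all genes were called with either Hspa8 or Hsp90ab1.

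The TMM factor moved with Hsp90ab1 and Hspa8. It had r = −0.658 with Hsp90ab1 (permutation p = 9e-05, adjusted p = 0.0072 over the 160 relations of members with markers and quality measures), and r = −0.57 with Hspa8 (adjusted permutation p = 0.0259). With Hsp90aa1 (r = −0.377, adjusted permutation p = 0.154) and Hsp90b1 (r = 0.395, adjusted permutation p = 0.141) it did not pass. With library totals in place of TMM factors, Hsp90ab1 and Hspa8 still had r = 0.836 and Hsp90ab1 and Hsp90b1 r = −0.557, and both pairs were still called, but the remaining 3 pairs were not. In that setting the share of genes called was 8.29% with Hsp90ab1 and 20.5% with Hsp90b1.

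Several genes of the unfolded protein response rose with Hsp90b1. The genes of both partner lists named in this paragraph and the next were chosen after their values were seen. Of 33 ER partners, 8 rose and 1 fell with Hsp90b1 (9 of 33 against 9.19% of all genes). Those that rose were Dnajb9, an ER co-chaperone induced by stress (0.37 per SD, SE 0.08, adjusted p = 0.00182), Manf, a secreted ER stress protein (0.31, adjusted p = 0.00176), the transcription factor Xbp1 (0.29, adjusted p = 0.00246), Syvn1, the ubiquitin ligase of ER protein disposal (0.35), Herpud1 (0.20), Ppib (0.19), Selenos (0.18) and Pdia6 (0.16). Ddit3, the factor CHOP, fell by 0.22 (adjusted p = 0.0079). Without the mouse of low connectivity 5 rose and none fell, against 3.1% of all genes. With 5 surrogate variables as covariates 0% of all genes were called with Hsp90b1, and so none of these. With library totals in place of TMM factors 15 rose and 1 fell, but there 90% of all called genes rose with Hsp90b1, against 55.5% with TMM.

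With Hsp90ab1 several of these genes went the other way. Of all genes, 18% were called with Hsp90ab1 (1472 rose and 1659 fell). Of the 33 ER partners, 7 fell, namely Dnajb9 (−0.44, SE 0.07, adjusted p = 8.33e-06), Syvn1 (−0.42), Manf (−0.38), Xbp1 (−0.35), Selenos (−0.21), P4hb, the founding disulfide isomerase (−0.21), and Herpud1 (−0.20). Another 3 rose: Atf4, the transcription factor of the integrated stress response (0.29, SE 0.04, adjusted p = 1.23e-06), Sil1, the nucleotide exchange factor of BiP (0.27), and Ddit3 (0.24). Since Hsp90b1 and Hsp90ab1 were themselves inversely related, these are not separate observations. Without the mouse of low connectivity 7 fell and 1 rose, against 5.78% of all genes called. Hspa5, the head of this response in most cells, had none of the 33 called, but only 0.304% of all genes were called with it. Its one called partner was cytosolic, Stip1 (0.28 per SD, adjusted p = 0.0267). Without the mouse of low connectivity no gene was called with Hspa5. Whether the ER genes differed in their relation to Hspa5 and to Hsp90b1 was not tested.

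Among the 34 cytosolic and mitochondrial partners, 5 rose with Hsp90ab1 and 6 fell. The Hsp90 co-chaperone Stip1 rose by 0.29 per SD (SE 0.04, adjusted p = 4.36e-06) and Ahsa1 by 0.20 (adjusted p = 0.000406), together with Hspb8 (0.35), Dnajc5 (0.13) and the mitochondrial Hspd1 (0.10). Other Hsp90 co-chaperones of the list were not called, with slopes of 0.11 for Cdc37, −0.11 for Chordc1, −0.03 for Fkbp4 and −0.02 for Ptges3. The 6 that fell were the mitochondrial pair Hspa9 (−0.18) and Hspe1 (−0.15), Dnajc6, which uncoats clathrin vesicles (−0.28), Dnajb5 (−0.27), Hsbp1, a binding protein of heat shock factor 1 (−0.16), and Dnaja2 (−0.12). In all, 11 of 34 were called against 18% of all genes. Hspd1 and Hspe1, whose proteins form 1 chaperonin, thus took opposite slopes. Without the mouse of low connectivity 2 rose and 3 fell, against 5.78% of all genes called. Of 10 immediate early genes 3 were called, against 18% of all genes, and fell with Hsp90ab1 (Nr4a1 by 0.53, Egr1 by 0.36 and Dusp1 by 0.26). Their summed level was 95.7 CPM in the mouse of low connectivity, the lowest of all. The sum was not related to Hsp90ab1 past the threshold (r = −0.623, adjusted permutation p = 0.0574, rho = −0.169), and r was −0.239 without that mouse, 0.057 once the 2 farthest mice were left out and 0.223 among WT alone. It did pass with Hspa8 (r = −0.611, adjusted permutation p = 0.0361, rho = −0.273) and Hsp90aa1 (r = −0.582, adjusted permutation p = 0.0214, rho = −0.422), though neither rho passed. Without the mouse of low connectivity r was −0.327 and −0.439, and among WT alone 0.139 and −0.136.

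Hsp90aa1 was the member most closely tied to what the punch held. Its r with the summed excitatory markers was 0.620 (permutation p = 0.00028, adjusted p = 0.0149 over 160 relations, rho = 0.586), and 0.424 without the 2 farthest mice, 0.503 without the mouse of low connectivity, and 0.505 and 0.769 within lines 1 and 3. With the striatal markers it was −0.579 (permutation p = 0.00067, adjusted p = 0.0214, rho = −0.560), and −0.473, −0.462, −0.517 and −0.677 in the same order. Within WT and CYFIP1 OE mice the excitatory r was 0.703 and 0.589, and the striatal r was −0.329 and −0.762. The inhibitory marker sum passed too (r = −0.537, adjusted permutation p = 0.0402, rho = −0.584). In the fits, 6 of 8 excitatory markers rose with Hsp90aa1, at a median slope of 0.83 over the list. Of the striatal markers, 5 of 7 fell, at a median of −0.54, where 8.37% of all genes were called. Without the mouse of low connectivity 5 excitatory markers rose and 1 striatal marker fell, against 2.46% of all genes called. With the 2 marker sums as covariates, the genes called with Hsp90aa1 dropped from 1459 to 2, whereas those called with Hsp90ab1 were 3131 and 3020 and with Hsp90b1 1602 and 1556.

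**Figure D5:**
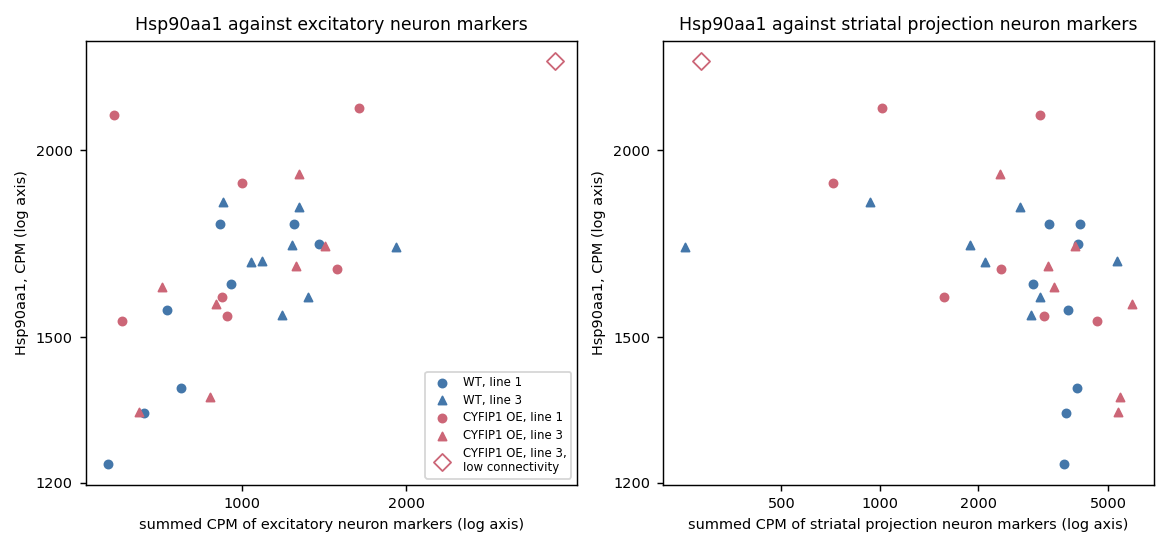
Hsp90aa1 in CPM against the summed CPM of excitatory neuron markers (left) and striatal projection neuron markers (right) in the 31 mice, all axes log; colour gives the genotype, shape the line, and the open diamond is the mouse of low connectivity. Hsp90aa1 is higher in punches rich in excitatory markers (r = 0.620) and lower in those rich in striatal markers (r = −0.579).

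Hspa1a and Hspa1b were also lower where striatal markers were high, with r = −0.456 and −0.447, but neither passed the adjustment (adjusted permutation p = 0.104 and 0.106). The genes whose course over the 31 mice was most like that of Hspa1b, by Pearson's r of log2 CPM after removal of sex, line and genotype, were Enoph1 (0.663), Gm42433 (0.649), the transcription factor Npas3 (0.642), Efcab10 (0.639) and Scarf2 (0.636). None of these was called (adjusted p = 0.269 to 0.273), and 5% of all genes had an r above 0.365. For Hspa5 they were the ubiquitin ligase Ube4a (0.741), the ceramide synthase Cers5 (0.724), the lysosomal protease Ctsd (0.722), Fbxo2, which binds glycoproteins for disposal (0.699), and Prkcsh, the beta subunit of ER glucosidase II (0.690). All 5 of these were called with Hspa5 in the full set of mice (adjusted p = 0.0267 to 0.0444), and without the mouse of low connectivity no gene was.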

How the data were processed

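Left and right punches of the basolateral amygdala were pooled for each of the 31 mice, and each mouse was 1 replicate. The authors mapped the QuantSeq reads to GRCm38 with STAR, quantified genes with Salmon and deposited the expected counts, 1 table for each mouse, without normalization. Counts were rounded, and a gene was tested if 20% of the mice or more had 10 or more of its reads. Symbols came from the GENCODE annotation of GRCm38, and promoters from RefSeq.

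Levels are CPM after TMM scaling with edgeR 4.0.16 in R 4.3.3, and log2 CPM used a prior count of 2. Differences and slopes were put to the two-sided quasi-likelihood F test of edgeR with the terms sex, line and genotype, and p-values were adjusted by Benjamini-Hochberg over all tested genes. P-values of correlations came from 100000 random permutations (two-sided) in scipy 1.17.1. DESeq2 1.42.0, 5 surrogate variables from sva 3.50.0 and subsets of the mice served as alternatives. The tests were tried on simulated data first. The authors' own model also held 5 sequencing principal components, which were not used here.

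The members, partner lists and tests were chosen with earlier results of these data known. Named genes were all members, the 3 genes of each partner list with the smallest p for genotype, line and name group, and the 5 genes most like Hspa1b and Hspa5. Genes named for their slopes on a member, and the markers named with the samples, were chosen after their values were seen. Depth limits Hspa1a, Hspa1b, Hspb1 and Pdia4, and the floor of 3 reads covers counting error only.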

Additional observations from a re-analysis of the deposited data

Results flagged for a closer look

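Within the 4 groups of genotype and line, a mouse stood far from the rest of its group by Dixon's test in 6 of 40 cases (10 genes in 4 groups), where chance gives about 1 in 20. Of these, 2 belonged to the CYFIP1 OE male of line 3 with low connectivity, which had 553 CPM of Hspa8 where the other 7 mice had 278 to 309, and 2850 CPM of Hsp90ab1 where the others had 1246 to 1489. Another 2 belonged to a CYFIP1 OE female of line 1, with 1902 CPM of Hsp90ab1 (others 1185 to 1463) and 98.1 CPM of Hsp90b1 (others 163 to 184). The remaining cases were a WT male of line 3 with 75.1 CPM of Dnajb1 (others 46.6 to 57.8) and a WT female of line 1 with 14.7 CPM of Hspb1 (others 4.92 to 8.36).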

How the results depend on the processing

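Genotype, line, sex and their interaction called none of the 10 members under any alternative. Over all genes, counts moved for genotype (2 with 5 surrogate variables against 0), line (2 without the low count filter against 0), the interaction (2 with DESeq2 and 2 without the filter, against 0) and sex (4 with at least 10 reads in every mouse against 11). Name groups called 1 member, Hspa1b, without the low count filter, and 201 genes with DESeq2, 1318 without the filter, 5 with at least 10 reads in every mouse, 0 without the mouse of low connectivity and 17 among groups of at least 3 mice, against 3. Of the 45 member pairs, 5 were called, against 0 with 5 surrogate variables, 2 without the mouse of low connectivity, 1 in line 1, 2 in line 3, 0 in WT mice and 2 with library totals without TMM factors; the subsets hold fewer mice, and the cause of the other changes was not tested. The balance of compartments differed between genotypes by −0.007 to 0.050 over its alternatives, within the spread of either group. The line difference of Hspa1b kept its sign in all 10 alternatives that could be fitted for it (0.45 to 2.06), and that of Hspa5 in all 12 (0.09 to 0.24). Single replicates were not left out in turn because each group had more than 5 mice. Summing Hspa1a with Hspa1b, the marker sums as covariates, library totals and the removal of the 3 mice highest in Hsp90ab1 were chosen after seeing the data. No paired analysis was possible because replicate numbers, as given in accession order, pair no mice. Fits of genotype within name groups, over all 31 mice or over the 18 mice of the 5 groups that hold both genotypes, called 0 members and 0 genes.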
